A study of Mus musculus with 3 samples.

Results

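The 7 genes described here encode transcription factors, and 1 adaptor, that act at the promoters and enhancers of odorant receptor genes: Ebf1, Ebf2, Ebf3, Ebf4, Lhx2, Ldb1 and Emx2. They were found by their row names in a deposited table of 34617 gene rows, and all 7 had a row. The study sampled the main olfactory epithelium of mice at 4 weeks of age, and 2 of its 3 samples are RNA libraries of sorted cells. The O/Tet3 library came from strain Fvb and carries OMP-tTA with tetO-Tet3-GFP, so that the driver at the olfactory marker protein gene Omp turns on Tet3, which converts the methylated base 5-methylcytosine into 5-hydroxymethylcytosine. The mOSN library came from strain C57BL/6J and was made from cells positive for OMP-ires-EGFP, in which green fluorescent protein is made together with Omp. Both rest on total RNA depleted of ribosomal RNA. Omp is a gene of mature olfactory sensory neurons, so the transgene and both sorts are tied to that cell type, and the sources used here do not give how many animals each library pooled. The other sample, O/Tet3 DNA enriched for 5-hydroxymethylcytosine, was not analysed here.

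Each mature olfactory neuron transcribes mainly 1 odorant receptor gene, and many receptor genes carry binding sites for Ebf and LIM homeodomain proteins near their start. The same sites occur together in the distant enhancers of the receptor clusters, where Ebf proteins and Lhx2 bind and Lhx2 brings in Ldb1, which binds LIM domains and can pair with itself and so hold bound elements together. The Ebf proteins, also called Olf-1 or O/E proteins, bind DNA as dimers and also bind near other genes of mature olfactory neurons. Emx2 is a homeodomain protein that in mice is needed for the normal expression of many receptor genes.

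The DNA stretches below show the letters these factors are known for, searched in windows running from 250 bases before to 50 bases after a gene's start, from RefSeq, build GRCm38.p6. The letters searched were CCCNNGGG, the core of the Ebf site, and TAATNA, the core of homeodomain sites, which includes TAATTA, on both strands. Of the 7 genes 6 were matched by symbol, with 10 windows between them. The 4 member windows that hold a core are printed, together with 1 receptor window that holds both, that of Olfr1357, the receptor with the highest mOSN value among the 14 such receptor windows with a row in the table. Capitals mark the cores.
Ebf3 promoter, GRCm38.p6 chr7:137314396-137314695, minus strand: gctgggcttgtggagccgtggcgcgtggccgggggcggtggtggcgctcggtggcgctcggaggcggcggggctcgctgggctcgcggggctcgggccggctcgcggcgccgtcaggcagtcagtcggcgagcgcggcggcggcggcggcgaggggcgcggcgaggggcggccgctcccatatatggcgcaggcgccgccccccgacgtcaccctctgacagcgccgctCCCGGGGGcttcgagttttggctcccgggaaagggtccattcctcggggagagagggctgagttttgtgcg
Lhx2 promoter, GRCm38.p6 chr2:38351058-38351357, plus strand: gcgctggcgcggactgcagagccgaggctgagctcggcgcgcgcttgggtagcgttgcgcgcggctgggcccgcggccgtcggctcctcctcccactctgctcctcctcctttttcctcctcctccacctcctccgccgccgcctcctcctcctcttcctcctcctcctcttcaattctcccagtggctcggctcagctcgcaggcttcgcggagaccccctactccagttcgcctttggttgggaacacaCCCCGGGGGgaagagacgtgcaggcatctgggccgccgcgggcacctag
Ldb1 promoter, GRCm38.p6 chr19:46039572-46039871, minus strand: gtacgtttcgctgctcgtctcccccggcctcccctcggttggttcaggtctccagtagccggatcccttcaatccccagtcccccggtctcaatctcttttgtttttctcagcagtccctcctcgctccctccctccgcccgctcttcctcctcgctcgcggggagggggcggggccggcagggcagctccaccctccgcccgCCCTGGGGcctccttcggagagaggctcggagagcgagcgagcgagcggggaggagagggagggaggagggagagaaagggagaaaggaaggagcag
Emx2 promoter, GRCm38.p6 chr19:59458440-59458739, plus strand: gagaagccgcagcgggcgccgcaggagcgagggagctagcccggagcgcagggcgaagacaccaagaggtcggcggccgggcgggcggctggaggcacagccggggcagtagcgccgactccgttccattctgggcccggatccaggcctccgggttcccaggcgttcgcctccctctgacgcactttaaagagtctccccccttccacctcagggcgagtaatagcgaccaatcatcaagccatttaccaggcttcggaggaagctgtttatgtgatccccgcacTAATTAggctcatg
Olfr1357 promoter, GRCm38.p6 chr10:78618025-78618324, minus strand: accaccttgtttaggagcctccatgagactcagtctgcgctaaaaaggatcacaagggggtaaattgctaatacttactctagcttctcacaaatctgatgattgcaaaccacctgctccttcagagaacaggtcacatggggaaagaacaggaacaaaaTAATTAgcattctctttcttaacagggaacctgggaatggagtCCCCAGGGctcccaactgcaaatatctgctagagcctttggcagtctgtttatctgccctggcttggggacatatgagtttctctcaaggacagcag

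The Ebf core stood in the windows of Ebf3, at bases -21 to -14 from the start, of Lhx2, where 2 overlapping matches ran from base 2 to base 10 after the start, and of Ldb1, at bases -47 to -40. It was found in 3 of the 10 member windows, against 13.7% of all 32851 windows of the same length. The homeodomain core stood in 1 of the 10 member windows, that of Emx2, at bases 37 to 42 after the start, against 26.5% of all windows. The TAATTA form of it was in that same Emx2 window and in 5.29% of all windows. Member windows were rich in G and C, with a median of 68.3% against 52.7% over all windows, which moves with both counts, and its part in them was not tested. In the 944 windows of olfactory receptors, with a median of 35.0% G and C, the balance was the other way: 65.9% held TAATNA, 18.6% held TAATTA and 3.07% held CCCNNGGG. A match is a run of letters in a window and not a shown binding site, and the receptor enhancers lie outside these windows. Only exact matches were counted, so sites that depart from a core or lie outside a window were missed. Whether transcription begins at the RefSeq start of each receptor gene was not tested. A low share of windows with the Ebf core is therefore no count of receptor genes with Ebf sites. Olfr1357 itself was at 0.0784 in O/Tet3 and 3.63 in mOSN.

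The libraries were first set against their labels. Tet3 was at 145 in O/Tet3 and 3.72 in mOSN, 39.1-fold higher, and Omp at 139 in O/Tet3 and 298 in mOSN. These numbers are the deposited values taken out of their log2(value + 1) form, and the file does not name their unit. The submitters' processing notes name Cuffdiff, whose usual output is scaled to transcript length. Single reads of receptor genes were worth about 0.0264 in mOSN, while Neurog1 was above 0 there at 0.0139, so a read was not worth the same in all genes, as it would be in a unit that ignores length. Levels of different genes are compared below on the understanding that they are per length. For receptor genes the step of 1 read was 0.0490 in O/Tet3 against 0.0264 in mOSN, so a given value rests on fewer reads in O/Tet3.

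All 7 factors had transcripts well above these steps in both libraries, and all 7 had the lower value in O/Tet3. The size of the difference varied within the group. Lhx2, Ebf3, Ebf4 and Ebf1 were 2.48-fold to 3.87-fold lower, while Emx2, Ebf2 and Ldb1 were 1.31-fold to 1.69-fold lower. A gene was counted as lower or higher when the log2 ratio of value + 1, O/Tet3 over mOSN, reached 1 in size, and a row was compared when either library had it at 1 or more. By this count 4 of the 7 factors were lower and 0 higher. Over all 12943 compared rows, 12.0% were lower and 16.5% higher. At 3-fold of value + 1, Lhx2 and Ebf3 were lower, 2 of the 7, against 5.2% of compared rows lower and 5.76% higher. With ratios centred on the median of rows at 1 or more in both libraries, 4 of the 7 were again lower, against 15.1% of compared rows lower and 11.3% higher. That median was positive, so this centring moved every ratio down and could not reduce the count of lower factors. The median log2 ratio was −1.25 for the 7 factors and 0.21 for all compared rows. With 1 library in each group no test could be run, these differences have no replicate check, and genotype, strain and library cannot be told apart. In sorted cells of this kind, fewer cells with a transcript and less of the transcript per cell cannot be told apart either.

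**Figure D1:**
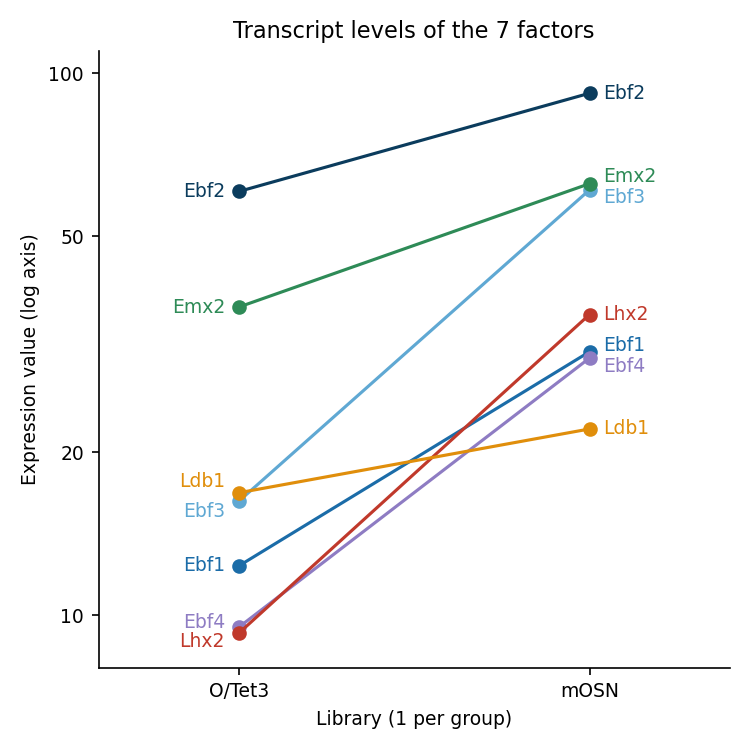
Expression value of each of the 7 factors (log axis) in the O/Tet3 library (left) and the mOSN library (right), 1 library per group, with a line joining the values of a gene. All 7 lines run upward to the right. The lines of Lhx2, Ebf3, Ebf4 and Ebf1 are steeper, and that of Ldb1, at 16.8 in O/Tet3 and 22.1 in mOSN, is the flattest.

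Among the Ebf proteins, Ebf1 is the founding member, known also as a factor of early B cells and named Olf-1 from olfactory neurons. Its transcript was at 12.3 in O/Tet3 and 30.6 in mOSN, 2.48-fold lower (log2 ratio −1.25). Ebf2, a paralog with the same kind of DNA-binding domain that is also known in brown fat cells, was at 60.5 in O/Tet3 and 91.8 in mOSN, 1.52-fold lower (log2 ratio −0.59). It had the highest value of the 7 in both libraries. Ebf3, the paralog formerly called O/E-2, was at 16.2 in O/Tet3 and 60.9 in mOSN, 3.75-fold lower (log2 ratio −1.84). Ebf4, known also as O/E-4, was at 9.51 in O/Tet3 and 29.8 in mOSN, 3.14-fold lower (log2 ratio −1.55). RefSeq lists Ebf3 among the older names of Ebf4, and the rows are called here as the table names them. The sources used here do not say how reads shared by the 4 paralogs were assigned.

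Taken as a sum, the Ebf transcripts had a value of 98.6 in O/Tet3 and 213 in mOSN, 2.16-fold lower. Ebf2 made up 61.4% of that sum in O/Tet3 and 43.1% in mOSN, a gain of 18.3 percentage points. Ebf3 made up 16.5% in O/Tet3 and 28.6% in mOSN, which is the largest loss of the 4, at −12.1 points. The shares of Ebf4, at 9.65% in O/Tet3 and 14.0% in mOSN, and of Ebf1, at 12.5% in O/Tet3 and 14.4% in mOSN, differed by fewer points. Such shares do not depend on how the libraries were scaled to each other. Within a library, Ebf2 stood at 3.73 times the value of Ebf3 in O/Tet3 and at 1.51 times in mOSN. Against Ebf4 it stood at 6.36 times in O/Tet3 and 3.08 times in mOSN.

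**Figure D2:**
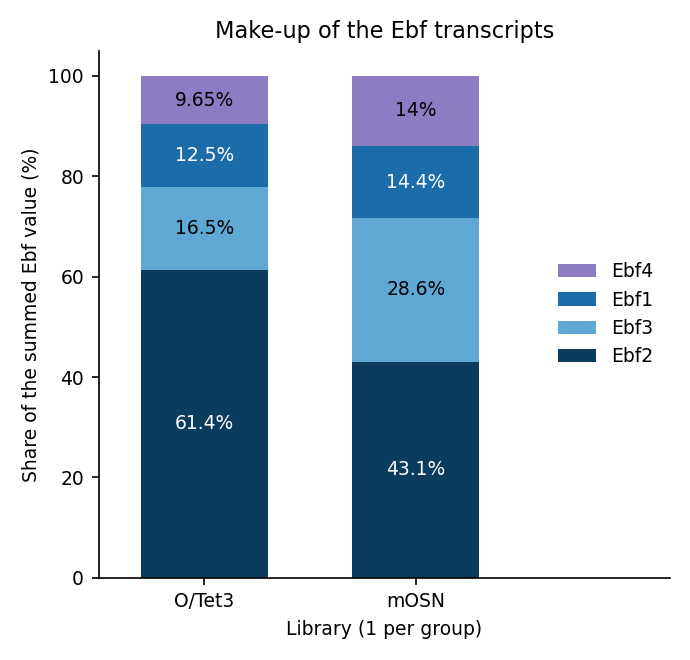
Share of each Ebf gene in the summed value of the 4 Ebf genes (%) in the O/Tet3 library (left) and the mOSN library (right), 1 library per group. The Ebf2 segment is 61.4% in O/Tet3 and 43.1% in mOSN, and the Ebf3 segment is 16.5% in O/Tet3 and 28.6% in mOSN.

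Lhx2, a LIM homeodomain protein needed for the formation of olfactory neurons in mice, had with Ebf3 the largest difference of the 7. It was at 9.27 in O/Tet3 and 35.9 in mOSN, 3.87-fold lower (log2 ratio −1.84). With Ebf4 it was at the bottom of the 7 in O/Tet3, and it was the fourth highest in mOSN. Ldb1, the adaptor that Lhx2 binds, was at 16.8 in O/Tet3 and 22.1 in mOSN, 1.31-fold lower (log2 ratio −0.37), the smallest difference of the 7. The quotient of the Lhx2 value over the Ldb1 value was 0.551 in O/Tet3 and 1.63 in mOSN, so the transcript with the larger value was Ldb1 in O/Tet3 and Lhx2 in mOSN. Such a quotient within a library is also free of the scaling between libraries.

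Emx2 was at 37.0 in O/Tet3 and 62.5 in mOSN, 1.69-fold lower (log2 ratio −0.74). Centred on the median of all 12 reference genes its log2 ratio was −1.003, which counts as lower, and centred on the 11 of them that were compared, an alternative chosen after seeing the data, it was −0.93, which does not. It was second to Ebf2 in O/Tet3, and in mOSN it and Ebf3 came next after Ebf2. Its antisense transcript Emx2os was at 0.997 in O/Tet3 and 1.89 in mOSN, or 2.69% of the Emx2 value in O/Tet3 and 3.01% in mOSN. The sources used here give no strand setting, so reads of Emx2 and Emx2os cannot be told apart where they overlap. Its paralog Emx1 was low, at 0.168 in O/Tet3 and 0.114 in mOSN. Single reads of receptor genes were worth about 0.0490 in O/Tet3 and 0.0264 in mOSN.

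In O/Tet3 the order of the 7 levels, high to low, was Ebf2, Emx2, Ldb1, Ebf3, Ebf1, Ebf4 and Lhx2. In mOSN the order was Ebf2, Emx2, Ebf3, Lhx2, Ebf1, Ebf4 and Ldb1. With 1 library per group the only error that can be put on these steps is that of counting, and it was worked out as if each transcript were as long as a receptor gene. By that yardstick the lowest value, Lhx2 in O/Tet3, would rest on 189 reads, with a counting error (1 SE) of 7.27%. In O/Tet3, Ldb1 was 3.63% above Ebf3, with a counting error of 7.70% on their quotient, and Ebf4 was 2.57% above Lhx2, with 10.2%. In mOSN, Emx2 was 2.68% above Ebf3, with a counting error of 2.92%, and Ebf1 was 2.73% above Ebf4, with 4.18%. By this yardstick the order within these 4 pairs is therefore not resolved. If values are per length, a transcript longer than a receptor gene would rest on more reads, with a smaller counting error. The lengths of the 7 transcripts were not used. The other neighbours differed by at least 17.1%, with counting errors of at most 9.56%. Counting error leaves out the variation between animals and preparations.

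Ranks among all 34617 rows, which do not depend on scaling, also put the 7 lower in O/Tet3. Ebf2 ranked 430 in O/Tet3 and 181 in mOSN, and Emx2 ranked 819 in O/Tet3 and 303 in mOSN. Ldb1 ranked 2225 in O/Tet3 and 1329 in mOSN. Ebf3 ranked 2324 in O/Tet3 and 313 in mOSN, and Ebf1 ranked 3120 in O/Tet3 and 863 in mOSN. Ebf4 ranked 3983 in O/Tet3 and 900 in mOSN, and Lhx2 ranked 4064 in O/Tet3 and 687 in mOSN. The lowest places among the 7 were those of Lhx2 and Ebf4 in O/Tet3 and that of Ldb1 in mOSN. By log2 ratio, 3.82% of all compared rows were below Ebf3, 3.84% below Lhx2 and 25.4% below Ldb1.

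**Figure D3:**
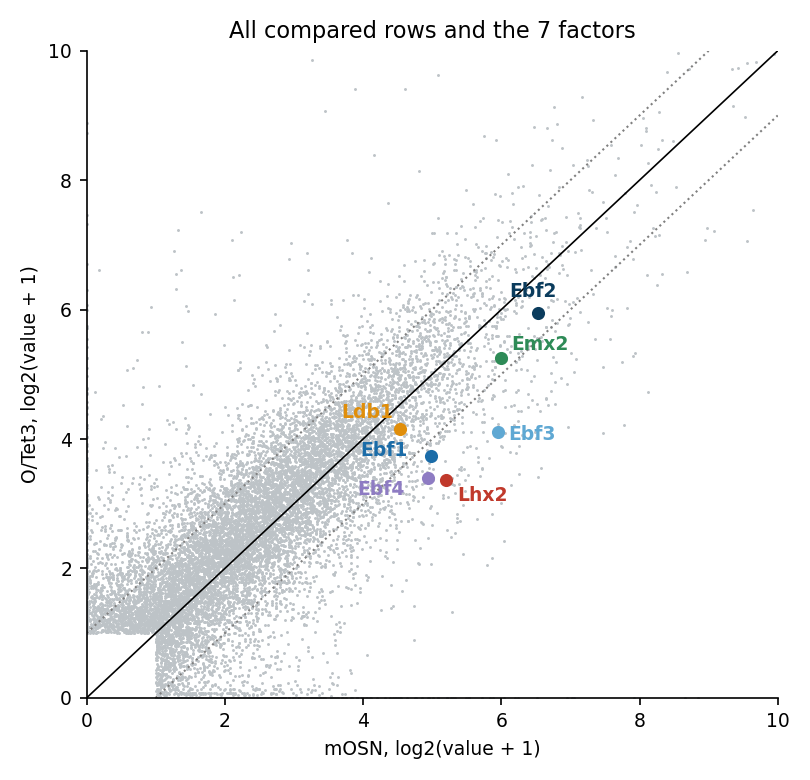
Log2(value + 1) of the compared rows (grey points) in mOSN (horizontal axis) and O/Tet3 (vertical axis), with the 7 factors in colour; 30 of the 12943 rows lie beyond the axes. The solid line marks equal values and the dotted lines a log2 ratio of 1 and −1. All 7 factors lie below the solid line, and Ebf1, Ebf3, Ebf4 and Lhx2 below the lower dotted line.

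The rows nearest to each factor in the plane of both log2 values were looked up among 8259 other rows with plain gene symbols and values of at least 1 in both libraries. Over 2 libraries, many rows lie close by, and nearness says only that the levels were alike. The nearest was Ndrg3 to Ebf2, at 61.9 in O/Tet3 and 90.8 in mOSN (distance 0.036 log2 units), and then Aplp1. The nearest to Ebf1 were Cenpo and Cd82, to Ebf3 Bzrap1 and Clstn1, and to Ebf4 Dtx3 and Pde4a. Lhx2 lay nearest to Mgea5, at 9.72 in O/Tet3 and 35.8 in mOSN (distance 0.068), and then to Scn4b. Ldb1 lay nearest to Bbs4, at 17.1 in O/Tet3 and 22.1 in mOSN (distance 0.025), and then to Scnm1, and Emx2 nearest to Wdr52 and Syt11. The distances of all 14 rows ran from 0.025 to 0.17 log2 units.

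The partners of Lhx2 and Ldb1 had log2 ratios of both signs, mostly within 2-fold. Of 9 listed LIM complex cofactors 6 were compared, of which 1 was lower and 0 higher (median log2 ratio −0.32, against 0.21 for all compared rows). That gene was Lmo2, a LIM-only protein that binds Ldb1 in blood cells, at 0.400 in O/Tet3 and 7.33 in mOSN. Rlim, a ubiquitin ligase for LIM cofactors, was at 20.6 in O/Tet3 and 11.1 in mOSN, Lmo4 at 2.24 in O/Tet3 and 4.11 in mOSN, and Ssbp3, a protein that stabilises Ldb1, at 11.8 in O/Tet3 and 15.8 in mOSN. The related Ssbp2, named after its value was seen, had the highest value of the list, 64.6 in O/Tet3 and 76.7 in mOSN. It stood at 3.84 times the Ldb1 value in O/Tet3 and 3.47 times in mOSN. Ldb2, the paralog of Ldb1, was listed at 0 in both libraries.

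No other LIM homeodomain gene reached a value of 1. The 11 others listed summed to 0.396 in O/Tet3 and 0.628 in mOSN, against 9.27 in O/Tet3 and 35.9 in mOSN for Lhx2 alone, with Lhx6 and Lhx9 the highest at up to 0.234. Of the 2 zinc finger proteins known to bind Ebf proteins, Zfp423 was compared, at 6.20 in O/Tet3 and 5.47 in mOSN, and was within 2-fold. Of 14 other homeobox factors of the olfactory epithelium or placode 4 were compared, 1 lower and 1 higher (median log2 ratio −0.75). Uncx, the lower one, was at 8.85 in O/Tet3 and 22.2 in mOSN. Pax6 was at 0.207 in O/Tet3 and 1.38 in mOSN, and Dlx6 at 0.827 in O/Tet3 and 1.62 in mOSN. Among 17 compared factors of receptor choice and nuclear organisation, 2 were lower and 0 higher (median −0.05). Those 2 were Nfix, a nuclear factor I protein, at 0.357 in O/Tet3 and 5.77 in mOSN, and Atf5, the stress-response factor of receptor feedback, at 20.6 in O/Tet3 and 93.7 in mOSN. The chromatin remodelers Smarca4 and Smarca5 followed in size, with log2 ratios of −0.78 and −0.72. Of the 7 neurogenic factors only Hes6 was compared, at 1.34 in O/Tet3 and 1.66 in mOSN.

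**Figure D4:**
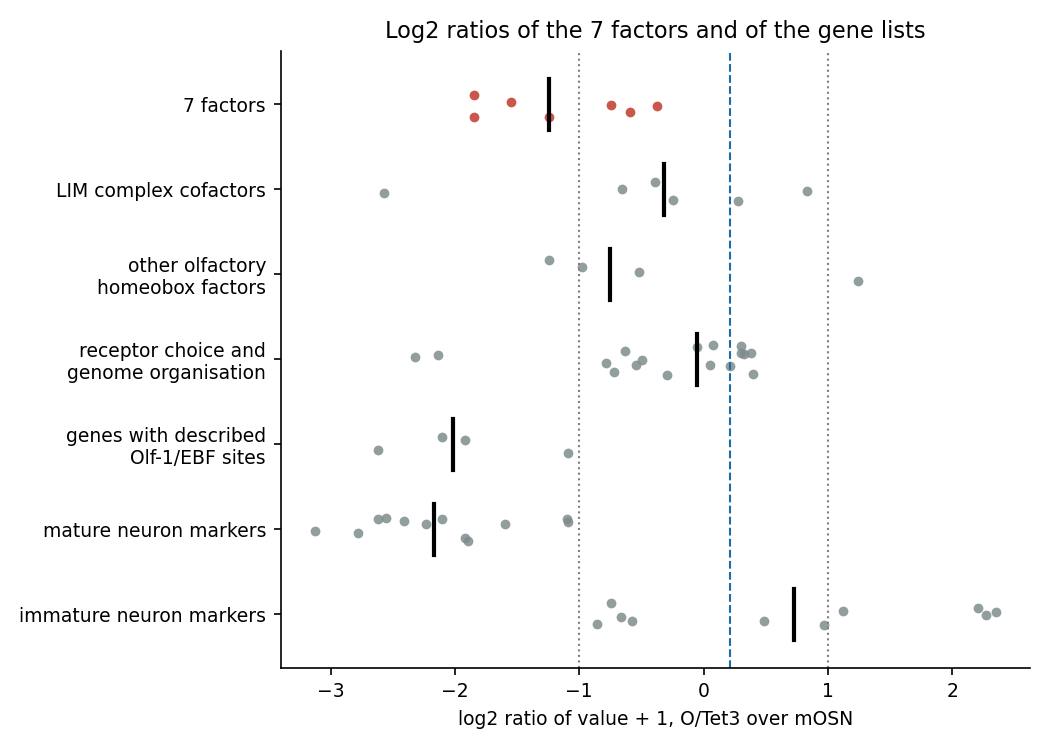
Log2 ratio of value + 1, O/Tet3 over mOSN, of each compared gene (points) for the 7 factors (red) and 6 gene lists (grey), 1 library per group. Black bars are list medians, the dashed line is the median of all compared rows (0.21), and dotted lines mark ratios of −1 and 1. The median of the 7 factors (−1.25) lies between the medians of the mature neuron markers (−2.17) and the immature neuron markers (0.73). The points of the 7 factors overlap those of both lists.

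The factors were lower by less than most of the listed markers of mature neurons. Of 4 olfactory genes with described Ebf sites in their promoters, all 4 were lower (median log2 ratio −2.01). The channel subunit Cnga2 was at 37.9 in O/Tet3 and 238 in mOSN, the G protein subunit Gnal at 95.0 in O/Tet3 and 411 in mOSN, and the cyclase Adcy3 at 29.7 in O/Tet3 and 115 in mOSN. Omp, the fourth, was 2.14-fold lower, a smaller fold than those of Lhx2, Ebf3, Ebf4 and Ebf1. All 12 mature neuron markers, which include these 4, were lower (median −2.17), and their summed value was 757 in O/Tet3 and 3309 in mOSN, with none at 0. Gng13 had the lowest ratio of them, −3.13, followed by Slc24a4 at −2.78, Cnga2 and Ano2. Of the 12, 9 had a lower log2 ratio than Lhx2 and Ebf3, 10 had a lower one than Ebf1 and Ebf4, and all 12 had a lower one than Ebf2, Emx2 and Ldb1. Set against Omp within each library, Ebf2 stood at 43.5% of the Omp value in O/Tet3 and 30.8% in mOSN, while Lhx2 stood at 6.66% in O/Tet3 and 12.0% in mOSN. Centred on the median of the mature neuron markers, an alternative chosen after seeing the data, all 7 factors had positive log2 ratios, from 0.32 for Ebf3 and Lhx2 to 1.80 for Ldb1. Centred on Omp alone, also chosen after seeing the data, Ebf1, Ebf3, Ebf4 and Lhx2 kept negative log2 ratios, of −0.15, −0.75, −0.46 and −0.75, and Ebf2, Ldb1 and Emx2 had positive ones.

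Markers of other cells also differed between the libraries, and their part in the levels of the 7 factors was not tested. The 10 markers of immature neurons had a median of 0.73, with 4 higher and 0 lower, and they summed to 213 in O/Tet3 and 188 in mOSN. The growth cone gene Gap43 was at 34.8 in O/Tet3 and 6.41 in mOSN, the stathmin Stmn1 at 34.7 in O/Tet3 and 6.72 in mOSN, and the transcription factor Sox11 at 6.05 in O/Tet3 and 0.383 in mOSN; Dpysl3 was the fourth, with a log2 ratio of 1.12. Another 4 of the 10 had negative log2 ratios within 2-fold, Crmp1 at −0.86, Tubb3 at −0.74, Ncam1 at −0.67 and Dcx at −0.57. Gng8, at 1.60 in O/Tet3 and 0.327 in mOSN, and Stmn2 had positive log2 ratios below the threshold, 0.97 and 0.49. Progenitor markers summed to 35.8 in O/Tet3 and 19.9 in mOSN, mostly Pcna, while the defining gene Neurog1 was at 0.0524 in O/Tet3 and 0.0139 in mOSN. Of 6 compared sustentacular markers 1 was lower, Ugt2a1, and 0 higher, and the list summed to 20.9 in O/Tet3 and 39.7 in mOSN. Of 9 horizontal basal, gland and microvillous markers 3 were compared, 2 lower (Ascl3 and Cftr, both listed at 0 in O/Tet3) and 1 higher (Pou2f3), with sums of 3.52 in O/Tet3 and 3.95 in mOSN and with Krt5, Krt14 and Trp63 listed at 0 in O/Tet3. Markers of glia, blood and vessels had 6 compared, with Fabp7 the 1 lower and 0 higher, and Cdh5 was listed at 0 in both. Their sums were 41.9 in O/Tet3 and 67.2 in mOSN, mostly from haemoglobin genes, so they say little of glia or vessels. Of 4 vomeronasal neuron markers 1 was higher, Gnai2 at 5.25 in O/Tet3 and 0.166 in mOSN, and 0 lower. The list summed to 41.7 in O/Tet3 and 39.9 in mOSN, mostly Gnao1, at 30.0 in O/Tet3 and 34.3 in mOSN. Meis2 and Trpc2 had log2 ratios of 0.65 and 0.02.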

How the data were processed

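Expression was compared between 1 O/Tet3 and 1 mOSN RNA library of sorted mouse cells. Per the labels' protocols, ribosomal RNA was removed with RiboMinus kits and libraries were made with the ScriptSeq kit. Build mm9 and the tools Bowtie, Bowtie2 and Cuffdiff are named in the submitters' processing notes, with no versions or roles; annotation, strand setting and read depth are not given in the sources used here. The deposited log2 columns hold log2(value + 1), and the deposited log2 ratio equals O/Tet3 minus mOSN within 8.0e-14. Values were taken back to linear form. Rows at 1 or more in either library were compared, with a pseudocount of 1, and called at a log2 ratio of 1 in size. The calling step was run on simulated data without noise, which checks the code and not the reliability of the calls. Named genes are the 7 factors, Tet3, Omp, up to 4 compared genes per list with the log2 ratio largest in size, and the 2 rows nearest to each factor. Emx1, Emx2os, Ldb2, Ssbp2, Lhx6, Lhx9, Olfr1357, Gng8, Stmn2, the negative immature markers and the markers given as listed at 0 or near 0 fall outside this rule and were named after their values were seen. For lists of cells other than neurons, and for reference genes, only counts, sums and some of these genes are given. Some genes that this rule selects are left out of the text. The 7 factors and the lists were chosen with earlier results of these data known. Alternatives were other pseudocounts, floors, folds and centrings. Promoter windows came from RefSeq GRCm38.p6, a build other than the authors' mm9, and were matched by symbol. Python 3.11.15, numpy 2.4.6 and pandas 2.3.3 were used.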

Additional observations from a re-analysis of the deposited data

How the results depend on the processing

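No paired analysis was possible because only 1 library per group exists here. Of 289 values recomputed under the alternatives, 238 stayed within 1.5 times the reported count or fold, with the same sign for ratios called at 1. Some of these could not have differed, as stated below. Pseudocounts of 0.1 and none kept the sign of all 7 factors, with 4 lower. So did centring on rows at 1 or more in both libraries (median 0.21), with 4 lower. Centring on the reference genes (median 0.26 over all 12) also kept it, with 5 lower, and put Emx2 just past the threshold, at −1.003. By construction these signs could not change and the count could not fall below 4. A smaller pseudocount moves each ratio away from 0, and subtracting a positive median moves each negative ratio further down. Centred on the 11 compared reference genes (median 0.19; 1 higher, 0 lower), chosen after seeing the data, Emx2 was at −0.93 and 4 were lower. A floor of 5 and no floor left 4 lower, which was fixed in advance, since all 7 factors were above 5 in both libraries. At 3-fold of value + 1, 2 factors were lower, against 5.2% of compared rows. Ebf4, 3.14-fold lower without the added 1, was not among them (log2 ratio of value + 1 −1.55). A stricter fold counts fewer by construction. Centrings on neuron genes were also chosen after seeing the data. Centred on the mature neuron markers, the log2 ratios were 0.92 for Ebf1, 1.57 for Ebf2, 0.32 for Ebf3, 0.62 for Ebf4, 0.32 for Lhx2, 1.80 for Ldb1 and 1.43 for Emx2, with 0 lower and 3 higher. Centred on Omp, they were −0.15, 0.50, −0.75, −0.46, −0.75, 0.72 and 0.35 in the same order, with 0 lower. Both subtract a negative ratio, so every value moves up by construction. Without Ebf4 in the sum, the Ebf1 share differed by −2.86 points in place of −1.86.

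For the lists, the cause of a difference was not tested beyond what a floor, fold or centring does by construction. Other olfactory homeobox factors had 2 lower with pseudocounts of 0.1 or none and with either planned centring, 0 higher when centred on reference genes, 0 lower and 0 higher at 3-fold, and a median of 0.0032 with a floor of 5 and −0.12 with no floor. Immature markers had 1 lower with no pseudocount and when centred on all rows, and 2 when centred on reference genes. They had 5 higher with pseudocounts of 0.1 or none, and 3 higher with either planned centring or at 3-fold. Sustentacular markers had 3 lower with pseudocounts of 0.1 or none and 2 lower with either centring. Horizontal basal, gland and microvillous markers had a median of −1.01, but −3.48 with a pseudocount of 0.1, −0.090 with no floor and 2.32 with no pseudocount, where 1 gene and 0 lower ones were left; at 3-fold 0 were lower and 0 higher. Glia, blood and vessel markers had 1 higher with pseudocounts of 0.1 or none, 2 lower when centred on all rows, 3 when centred on reference genes and 0 with a floor of 5. Vomeronasal markers had 2 higher with pseudocounts of 0.1 or none, and a median of 1.12 with a floor of 5 in place of 0.34. Reference genes had 2 higher with no pseudocount and 0 at 3-fold.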
